A study of Rattus norvegicus with 12 samples.

Results

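Mitochondria keep their own protein quality control system, and 8 genes of that system and of its secreted signals were followed here across the 4 groups of the study. They were Hspd1, Hspe1, Hspa9, Lonp1, Clpp, Atf5, Gdf15 and Fgf21, chosen by gene symbol from the 34034 symbols in the count table. All 8 were listed in the table, and 7 of the 8 were expressed highly enough to be tested, the exception being Fgf21.

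The cells were INS-1E, a wild-type rat insulinoma line that releases insulin and stands in for the pancreatic β-cell. Polyadenylated RNA was sequenced from 12 libraries, 3 labelled as biological replicates in each group. Untreated cells received no cytokine. IL-1βlow cells were preconditioned with 10 pg/ml IL-1β for 72 h, with the cytokine topped up daily in the same medium. CYT cells received 100 pg/ml IL-1β together with 5 ng/ml IFN-γ for 16 h. IL-1βlow + CYT cells went through the preconditioning, a change of medium and then the identical challenge. The study describes the medium change after preconditioning in general, and when unchallenged cells were collected relative to it is not stated for these libraries. All libraries come from a single tumour-derived line, and the labels do not say whether separate replicates were separate thaws or dishes, so the spread between replicates covers only these libraries.

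Most mitochondrial proteins are made in the cytosol, threaded through the inner membrane by the Hspa9 motor and folded in the matrix inside the barrel that Hspd1 forms with its lid Hspe1. Proteins that do not fold are degraded by the matrix proteases, of which Lonp1 works alone and Clpp works with the unfoldase Clpx. When this system is overloaded, signals reach the nucleus through the integrated stress response, in which the transcription factor Atf4 is translated preferentially, and through Atf5, a related factor tied to the mitochondrial unfolded protein response. Gdf15 and Fgf21 are secreted hormones, called mitokines, that cells release under mitochondrial or endoplasmic reticulum stress.

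Total counts per library ran from 15812640 to 20246806, and the levels given are CPM, counts scaled by TMM to a common library size, which corrects for depth but not for transcript length. Levels are therefore compared between groups and not between genes, and where the ratio of a pair of genes is given, its size is not read and only its difference between groups is. The 8 β-cell markers summed to 33900 to 40200 CPM in untreated libraries, 29600 to 34500 in IL-1βlow, 11100 to 11300 in CYT and 16500 to 21100 in IL-1βlow + CYT libraries. Markers of other islet cells summed to at most 368 CPM, and they too were lowest in CYT libraries at 25.4 to 64.9 CPM. Leukocyte markers summed to at most 1.17 CPM without challenge and to 1.98 to 4.52 CPM with it. Among them Ptprc, which encodes CD45, was at 0 counts in all 12 libraries, while Cd68 and Adgre1 were expressed highly enough to be tested. Fibroblast and vessel markers summed to at most 0.945 CPM and exocrine or duct markers to at most 0.163 CPM. The part of this shift in the results that follow was not tested, and in bulk RNA fewer cells of a type cannot be told apart from less RNA per cell.

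Upstream sequence is shown for 4 of the 8 genes because they cover the patterns described below. These are chaperonin genes that changed little, a chaperone and a transcription factor that rose, and a hormone gene that was scarcely detected. Each run is the 250 bases before a RefSeq start site on the rat build GRCr8, read 5′ to 3′ on the strand of the gene. Counts were made on the earlier build mRatBN7.2, so these positions do not apply to the count table. Capitals mark matches to 2 of the motifs searched, on both strands, the C/EBP-ATF element TGATGNAA and the heat shock element core GAANNTTC.
Hspe1, chr9:64084077-64084326, plus strand: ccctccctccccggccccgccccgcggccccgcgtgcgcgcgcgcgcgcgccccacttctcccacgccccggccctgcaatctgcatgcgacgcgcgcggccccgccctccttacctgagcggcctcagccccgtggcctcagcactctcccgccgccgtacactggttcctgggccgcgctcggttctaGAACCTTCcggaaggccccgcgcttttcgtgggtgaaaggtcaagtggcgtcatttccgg
Hspa9, chr18:26828399-26828648, minus strand: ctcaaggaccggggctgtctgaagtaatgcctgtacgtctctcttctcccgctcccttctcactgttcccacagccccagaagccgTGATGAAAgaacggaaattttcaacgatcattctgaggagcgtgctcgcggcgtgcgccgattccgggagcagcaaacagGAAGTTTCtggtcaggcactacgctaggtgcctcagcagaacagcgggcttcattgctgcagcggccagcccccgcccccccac
Atf5, chr1:104434796-104435045, minus strand: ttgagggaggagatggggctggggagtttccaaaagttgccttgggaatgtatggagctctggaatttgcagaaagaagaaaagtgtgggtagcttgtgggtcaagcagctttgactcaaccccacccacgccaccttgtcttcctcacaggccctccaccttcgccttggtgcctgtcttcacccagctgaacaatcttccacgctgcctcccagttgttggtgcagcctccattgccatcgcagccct
Fgf21, chr1:105221377-105221626, minus strand: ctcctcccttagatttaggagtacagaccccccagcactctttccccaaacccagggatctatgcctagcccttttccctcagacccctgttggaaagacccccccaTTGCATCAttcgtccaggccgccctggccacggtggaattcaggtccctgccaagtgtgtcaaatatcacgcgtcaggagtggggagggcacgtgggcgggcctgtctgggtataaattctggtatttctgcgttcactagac

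From the RefSeq start sites used here, Hspe1 and Hspd1 lie head to head with 289 bases between them. All 250 bases of the Hspe1 run above lie between these starts and are also upstream of the Hspd1 start, read on the other strand. The 250-base window of Hspd1 itself shares 211 of them. This Hspd1 start is not the outermost, and the genes overlap in the GRCr8 annotation, so the run can lie within Hspd1 from a start further out. The heat shock element match, at -60 to -53 from the Hspe1 start, is the same stretch of bases as the match at -237 to -230 from the Hspd1 start. Hspa9 held a C/EBP-ATF match at -164 to -157 and a heat shock element match at -84 to -77. Fgf21 held a C/EBP-ATF match at -143 to -136 on the opposite strand, and the Atf5 run held no match. Clpp, not printed, held a heat shock element match at -166 to -159, and the Gdf15 windows, 1 for each of its 2 start sites, held none. Of all 33469 rat windows of this length, 3.4% held the C/EBP-ATF element and 7.23% the heat shock element core. The cAMP response element TGACGTCA, found in 1.59% of all windows, was in no window of these genes, and Lonp1 was not among the windows used here. The start sites given for Hspd1, Hspa9, Clpp and Atf5 were not the outermost starts of those genes, so promoters further upstream were not searched.

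**Figure D1:**
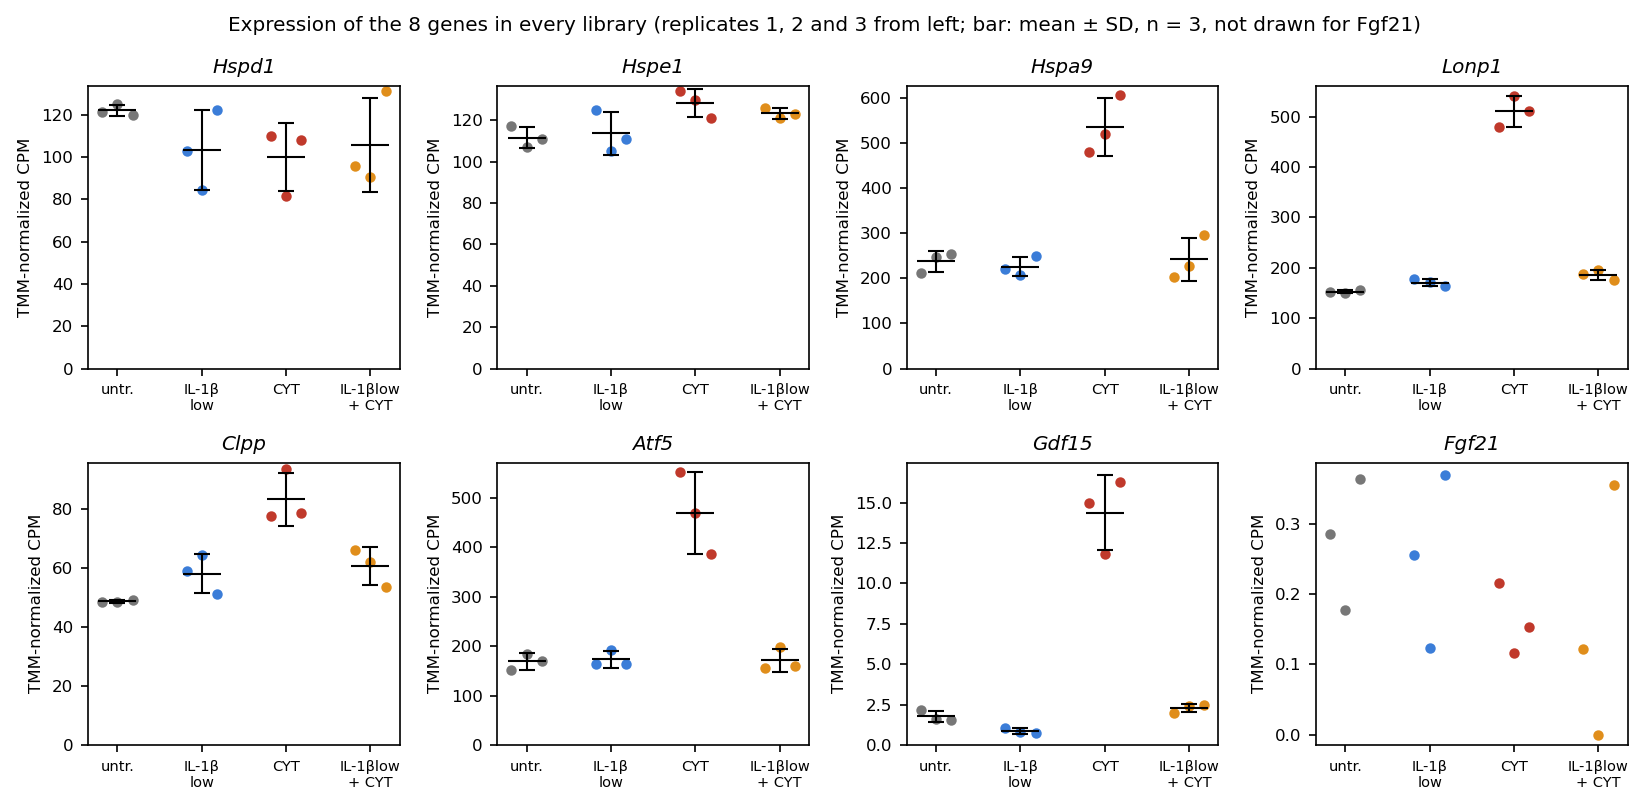
TMM-normalized CPM of each gene (vertical axes, starting at 0 or just below it for Fgf21) in the 4 groups, 1 point per library with the mean and SD of 3 libraries as a bar; no bar is drawn for Fgf21. Hspa9, Lonp1, Clpp, Atf5 and Gdf15 stood highest in the 3 CYT libraries, while Hspd1 and Hspe1 lay between 81.3 and 134 CPM in every library and Fgf21 stayed below 0.4 CPM. How many of all genes stood highest in the CYT libraries was not counted.

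CYT challenge of unprimed cells raised the matrix chaperone, the proteases, the transcription factor and Gdf15. The chaperonin genes changed less, by 0.20 for Hspe1 and -0.29 for Hspd1 on the log2 scale. Gdf15 rose 8.10-fold, Lonp1 3.35-fold, Atf5 2.78-fold, Hspa9 2.26-fold and Clpp 1.71-fold, each on 3 libraries against 3. A gene was called when edgeR's quasi-likelihood test gave an adjusted p below 0.01 with a log2 change of more than 1 in either direction. By this rule 4 of the 7 tested genes rose and 0 fell, where 10.0% of the 14324 genes tested rose and 11.6% fell. At an adjusted p under 0.05 with no fold minimum, 6 of 7 rose and 0 fell, against 30.6% of all genes higher and 31.7% lower. The median log2 fold change of the 7 genes was 1.17, and that of all genes tested was -0.04.

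Hspd1, the chaperonin barrel, was measured at 121, 125 and 120 CPM in the untreated libraries, 103, 84.4 and 122 in IL-1βlow, 110, 81.3 and 108 in CYT and 95.8, 90.3 and 131 in IL-1βlow + CYT. All 3 CYT libraries lay below all 3 untreated libraries, and the other groups overlapped with untreated cells. The difference between CYT and untreated cells was -0.29 on the log2 scale (SE 0.16, 95% interval -0.62 to 0.04, adjusted p = 0.12), which did not pass the test. Over the alternatives its adjusted p ran from 0.021 to 0.41, and 1 of 20 put it under 0.05 as lower. In none of the other comparisons did Hspd1 pass it either, and the interval of IL-1βlow + CYT against CYT cells ran from -0.25 to 0.41.

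Hspe1, the lid of the same chaperonin, stood at 117, 107 and 111 CPM in untreated cells, 125, 105 and 111 in IL-1βlow, 134, 130 and 121 in CYT and 126, 121 and 123 in IL-1βlow + CYT cells. CYT libraries lay above untreated ones by a log2 difference of 0.20 (SE 0.08, adjusted p = 0.045), a rise of 1.15-fold at the weaker threshold. IL-1βlow + CYT libraries also lay above the untreated ones, by 0.14, which did not pass the test (adjusted p = 0.24). The rise with CYT was at the edge of what these libraries resolved, since its adjusted p was between 0.052 and 0.11 without any 1 of CYT replicate 1, CYT replicate 2, untreated replicate 2, untreated replicate 3, IL-1βlow replicate 3 or IL-1βlow + CYT replicate 2, 0.076 without TMM factors and 0.050, not under the threshold, by edgeR's exactTest, the study's test. After preconditioning the level was within 0.23 log2 units below and 0.12 above that of CYT cells (95% interval). Hspd1 and Hspe1 overlap each other in the GRCr8 annotation, and the strand setting of the counting was not given in the sources used here, so reads in the shared stretch could not be assigned with certainty.

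Hspa9, the matrix Hsp70 that pulls proteins in and passes them on for folding, was measured at 211, 248 and 254 CPM in untreated and 221, 208 and 249 in IL-1βlow libraries. It reached 481, 521 and 606 CPM in CYT libraries and stood at 204, 228 and 296 in IL-1βlow + CYT libraries. No CYT library overlapped with any other group, and the remaining 3 groups overlapped with each other. The CYT rise was 1.17 on the log2 scale (SE 0.13, adjusted p = 3.4e-06), and preconditioned challenged cells were lower than CYT cells by -1.14 (SE 0.13, adjusted p = 8.6e-06). Against untreated cells, IL-1βlow + CYT cells differed by 0.03 (95% interval -0.25 to 0.31).

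Because the chaperones of the matrix work in sequence, the level of Hspa9 relative to Hspd1 was taken within each library, a ratio chosen after the values were seen. It was 1.74, 1.98 and 2.11 in untreated libraries and 4.36, 6.41 and 5.60 in CYT libraries, without overlap. In IL-1βlow + CYT libraries it was 2.13, 2.52 and 2.26, again below every CYT library. With 3 libraries against 3, a two-sided exact permutation test cannot go below p = 0.1, and it gave p = 0.1 for both comparisons.

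The partners of Hspa9 did not move together, and those named here that rose did so by less than Hspa9. Grpel1, its nucleotide exchange factor, rose from 55.6 CPM ± 2.78 (SD, n = 3) in untreated to 77.1 ± 6.76 in CYT cells, a log2 difference of 0.47 (SE 0.09, adjusted p = 4.3e-04). It was 59.7 CPM ± 3.86 in IL-1βlow + CYT cells, lower than in CYT cells by -0.37 (adjusted p = 0.0036). Dnaja3, its J-protein partner, rose by 0.45 (SE 0.08, adjusted p = 1.6e-04) and was lower by -0.42 after preconditioning (adjusted p = 4.6e-04). Trap1, the Hsp90 of the matrix, rose by 0.30 (SE 0.09, adjusted p = 0.0069), and its difference of -0.16 between IL-1βlow + CYT and CYT cells did not pass the test (adjusted p = 0.14). Other partners moved either way with CYT. Dnlz, which keeps Hspa9 soluble, was lower by -0.62 (SE 0.12, adjusted p = 5.1e-04). Dnajc19, a J-protein of the import motor, was lower by -0.92 (SE 0.16, adjusted p = 1.7e-04). Higher were the cochaperone Grpel2, by 0.80 (SE 0.13, adjusted p = 9.0e-05), and the import genes Pam16, by 0.54 (adjusted p = 0.0016), and Timm44, by 0.47 (adjusted p = 6.8e-04). Hscb, the J-protein of iron-sulfur cluster assembly, was at 0.29 and did not pass the test (adjusted p = 0.12).

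Lonp1, the ATP-dependent protease that clears oxidised and misfolded matrix proteins, stood at 152, 150 and 156 CPM in untreated, 178, 171 and 163 in IL-1βlow, 480, 541 and 510 in CYT and 188, 195 and 175 in IL-1βlow + CYT libraries. Every CYT library lay far above every library of the other groups, and all IL-1βlow and IL-1βlow + CYT libraries lay above all untreated ones. The log2 difference between CYT and untreated cells was 1.74 (SE 0.08, adjusted p = 2.2e-10), and between IL-1βlow + CYT and CYT cells it was -1.46 (SE 0.08, adjusted p = 1.0e-08). A residual difference of 0.29 remained between IL-1βlow + CYT and untreated cells (SE 0.07, adjusted p = 0.012). This last difference was not under 0.05 without untreated replicate 1 (adjusted p = 0.063), untreated replicate 2 (0.064), IL-1βlow + CYT replicate 1 (0.050) or IL-1βlow + CYT replicate 2 (0.062). Catsperd, which overlaps Lonp1 in the annotation, had at most 13 counts in any library.

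Clpp, the proteolytic subunit of the other soluble matrix protease, changed less. It was measured at 48.4, 48.4 and 49.0 CPM in untreated, 58.8, 64.2 and 51.1 in IL-1βlow, 77.7, 93.4 and 78.4 in CYT and 66.1, 62.0 and 53.5 in IL-1βlow + CYT libraries. CYT libraries were again above all others, and all preconditioned libraries were above the untreated ones. The CYT rise of 0.78 (SE 0.11, adjusted p = 2.4e-05) passed the test and stayed under the fold minimum, as did the difference of -0.46 between IL-1βlow + CYT and CYT cells (SE 0.11, adjusted p = 0.0026). IL-1βlow + CYT cells remained above untreated cells by 0.32 (SE 0.11, adjusted p = 0.048). That call was lost, with an adjusted p of 0.053 to 0.21, without any 1 of the 3 untreated replicates, IL-1βlow replicate 1 or 2, or IL-1βlow + CYT replicate 1 or 2.

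Clpx, the unfoldase that feeds Clpp, went from 18.3 CPM ± 1.16 in untreated to 23.5 ± 2.66 in CYT cells (n = 3 each), a log2 difference of 0.36 that missed the threshold (adjusted p = 0.053). Within libraries, the ratio of Lonp1 to Clpp was 3.13, 3.10 and 3.18 in untreated and 6.18, 5.79 and 6.51 in CYT libraries. It was 2.84, 3.14 and 3.28 in IL-1βlow + CYT libraries, below all CYT libraries. The exact permutation test gave p = 0.1, the smallest it allows, for both comparisons, and this ratio too was chosen after the values were seen.

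Atf5, the bZIP transcription factor, was measured at 152, 185 and 170 CPM in untreated, 164, 192 and 163 in IL-1βlow, 551, 469 and 387 in CYT and 156, 198 and 160 in IL-1βlow + CYT libraries. The CYT libraries spread widely among themselves and none came near another group, while the other 3 groups overlapped. Atf5 rose by 1.47 with CYT (SE 0.13, adjusted p = 3.4e-07) and was lower by -1.45 in IL-1βlow + CYT than in CYT cells (SE 0.13, adjusted p = 1.0e-06). IL-1βlow + CYT and untreated cells differed by 0.02 (95% interval -0.26 to 0.30).

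Atf5 overlaps Il4i1 and Nup62 in the annotation. Il4i1, an amino acid oxidase gene, went from 6.01 CPM ± 0.911 in untreated to 85.1 ± 27.4 in CYT cells and 12.3 ± 1.53 in IL-1βlow + CYT cells (n = 3 each), log2 differences of 3.82 and -2.79. Nup62, a nuclear pore gene, moved by 0.31 and -0.40 in the same comparisons. How reads from the shared stretches were divided was not given in the sources used here, and the part of the overlap in the Atf5 counts was not tested.

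The regulators next to Atf5 moved in the same directions. Atf4, the central factor of the integrated stress response, was 169 CPM ± 11.2 in untreated, 168 ± 11.3 in IL-1βlow, 699 ± 27.5 in CYT and 191 ± 18.7 in IL-1βlow + CYT cells (n = 3 each), so that it rose by 2.05 with CYT and was -1.87 lower after preconditioning. Ddit3, which encodes the stress factor CHOP, rose by 4.52 and was -3.42 lower. Unlike Atf5, Ddit3 was still above untreated cells in IL-1βlow + CYT cells, by 1.11 (SE 0.18, adjusted p = 2.9e-04). Whether the residual differences of these factors differed from that of Atf5 was not tested.

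**Figure D2:**
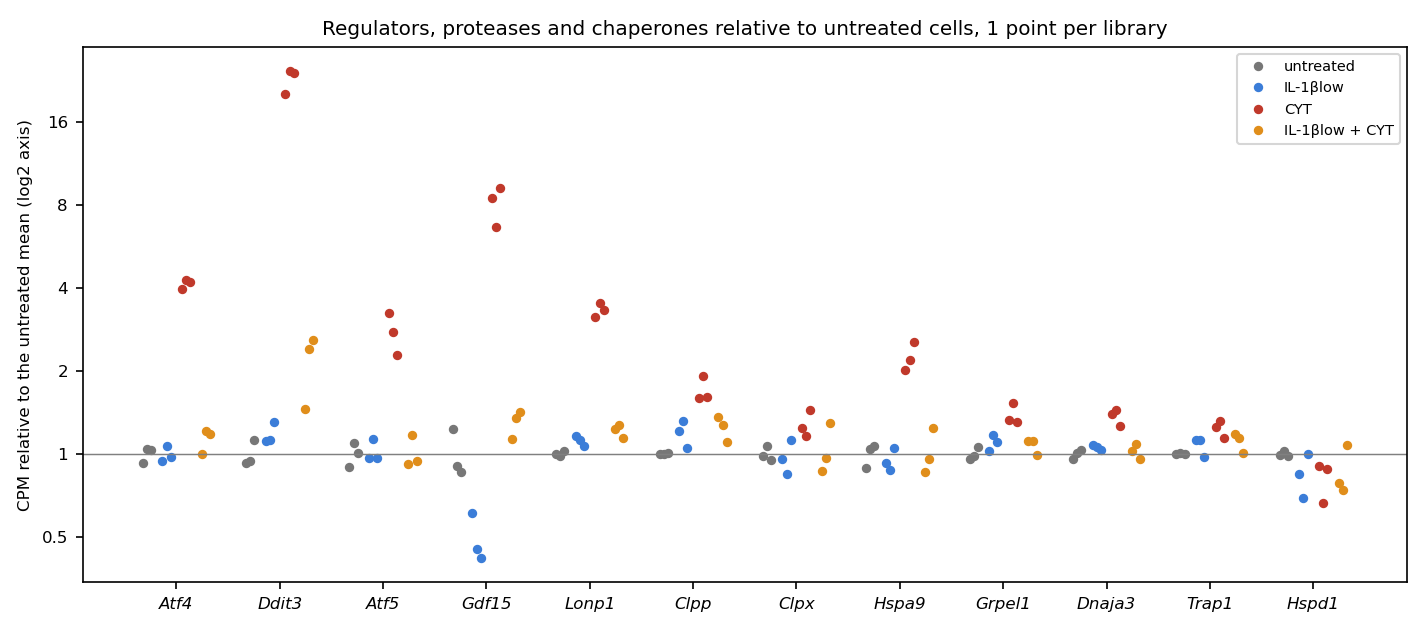
CPM of each library divided by the untreated mean of the same gene (log2 vertical axis, horizontal line at 1), for regulators, Gdf15, proteases, Hspa9 with its cochaperones, and Hspd1; 1 point per library, coloured by group. The CYT points stand apart from the other groups for Atf4, Ddit3, Atf5, Gdf15, Lonp1, Clpp, Hspa9, Grpel1 and Dnaja3, and lie below the line for Hspd1. The share of all genes whose CYT libraries stand apart in this way was not counted. At an adjusted p under 0.05 (edgeR), 30.6% of all genes were higher and 31.7% lower in CYT than in untreated cells.

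Gdf15, the stress hormone, was scarce without challenge, with 38, 27 and 25 counts in the untreated libraries and 21, 13 and 12 in the IL-1βlow libraries. It reached 276, 203 and 318 counts with CYT and stood at 33, 48 and 42 counts in IL-1βlow + CYT libraries. In CPM these were 2.18, 1.60 and 1.52 in untreated, 1.08, 0.797 and 0.740 in IL-1βlow, 15.0, 11.8 and 16.3 in CYT and 2.01, 2.39 and 2.50 in IL-1βlow + CYT libraries. The CYT libraries were highest and the IL-1βlow libraries lowest, with no overlap with another group on either side, and untreated and IL-1βlow + CYT libraries overlapped.

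Gdf15 had the largest fold changes of the 7 genes, a rise of 3.02 with CYT (SE 0.20, adjusted p = 1.6e-08) and a difference of -2.64 between IL-1βlow + CYT and CYT cells (SE 0.20, adjusted p = 1.8e-07). Preconditioned challenged cells differed from untreated cells by 0.38, which did not pass the test (95% interval -0.10 to 0.86, adjusted p = 0.26). With preconditioning alone it was 0.871 CPM ± 0.18 against 1.76 ± 0.359 in untreated cells (SD, n = 3 each), and the 95% interval of the log2 difference ran from -1.55 to -0.45, but the adjusted p of 0.079 from edgeR missed both thresholds. That p ranged from 0.039 to 0.32 over the alternatives, and 2 of 20 alternatives put it under 0.05. Lrrc25, which overlaps Gdf15, had at most 3 counts in any library.

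Fgf21, the other mitokine, was near the limit of detection in every group. Its counts were 5, 3 and 6 in untreated, 5, 2 and 6 in IL-1βlow, 4, 2 and 3 in CYT and 2, 0 and 6 in IL-1βlow + CYT libraries. The groups overlapped throughout, and the summed counts of 14, 13, 9 and 8 were too few to pass the filter on low counts. In the fit with no filter its adjusted p ran from 0.582 to 1 over the comparisons. A difference in Fgf21 was not detectable at this depth.

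**Figure D3:**
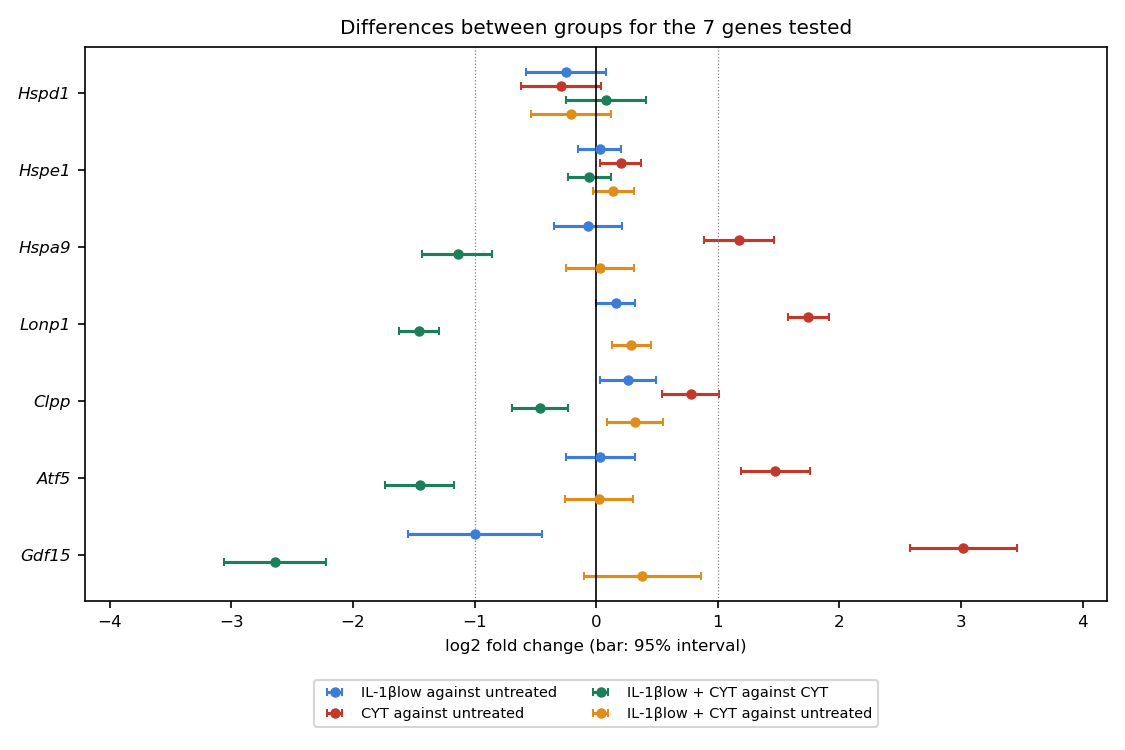
Fitted log2 fold changes (horizontal axis) with 95% intervals for the 7 tested genes in 4 comparisons, with dotted lines at -1 and 1. With CYT, Hspa9, Lonp1, Atf5 and Gdf15 lie above 1 and Clpp at 0.78, and between IL-1βlow + CYT and CYT cells the same 4 lie below -1 and Clpp at -0.46.

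Preconditioned and unprimed cells under challenge were compared to ask whether IL-1βlow changes the cytotoxic response. Hspa9, Lonp1, Atf5 and Gdf15 passed both thresholds as lower in IL-1βlow + CYT cells, 4 of 7 tested genes, where 5.92% of all genes tested were lower and 6.54% higher. At an adjusted p under 0.05, 5 of 7 were lower, where 25.5% of all genes were lower and 25.3% higher. The median over the 7 genes was -1.14, and over all genes 0.02. This comparison and that of CYT with untreated cells share the CYT libraries, so their values for the same gene are not independent.

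The interaction, the CYT response of preconditioned cells minus that of unprimed cells, was tested directly. It was -1.64 for Gdf15 (SE 0.33, adjusted p = 0.0017), -1.62 for Lonp1 (SE 0.11, adjusted p = 4.1e-07), -1.49 for Atf5 (SE 0.19, adjusted p = 4.8e-05), -1.07 for Hspa9 (SE 0.19, adjusted p = 6.0e-04) and -0.71 for Clpp (SE 0.15, adjusted p = 0.0024). These passed both thresholds as negative in 4 of 7 genes, against 5.20% of all genes tested, and passed the adjusted p of 0.05 in 5 of 7, against 19.1%. Hspa9 stood at the fold minimum, at -0.990 without IL-1βlow + CYT replicate 1, -0.996 without IL-1βlow replicate 3 and -0.999 without CYT replicate 3, with the adjusted p still under 0.01. The chaperonin genes did not pass, with 0.33 for Hspd1 (95% interval -0.14 to 0.80) and -0.08 for Hspe1 (95% interval -0.33 to 0.16).

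Preconditioning by itself called none of the 7 genes at the fold minimum used for this comparison, a log2 change of 0.6 in either direction with an adjusted p below 0.01, where 0.433% of all genes tested passed, nor any at an adjusted p under 0.05, where 1.35% did. Before adjustment, edgeR put 3 of the 7 under 0.05, namely Gdf15 lower and Lonp1 and Clpp higher. The share of all genes under 0.05 before adjustment was not counted. The 3 of 7 therefore has no background here, and the shares above do not apply to it. DESeq2 also gave 0 genes at an adjusted p under 0.05. Challenge of preconditioned cells, set against preconditioning alone, passed for Gdf15 only, by 1.38 (SE 0.25, adjusted p = 0.0013), 1 of 7 against 2.92% of all genes higher, and against 7.96% at an adjusted p under 0.05. Fitted on these 2 groups alone, its adjusted p was 0.012. For the other 6 genes the log2 differences between these groups ran from -0.01 to 0.12. Against untreated cells, IL-1βlow + CYT cells differed past both thresholds in 0 of 7 genes, where 5.99% of all genes did, and Lonp1 and Clpp were higher at an adjusted p under 0.05, where 12.2% of all genes were.

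The other genes of the system were grouped by role, in lists drawn up with earlier results of these data known. Counts in a list are therefore set beside the shares of all genes as description and are not a test. The list of import genes (the TOM and TIM translocases with their motor and intermembrane space relay) held 29 genes, of which 28 were tested. With CYT, 11 rose and 7 fell at an adjusted p under 0.05, with a median of 0.20, where 30.6% of all genes rose and 31.7% fell. These shares of all genes, and the 25.3% higher and 25.5% lower in IL-1βlow + CYT against CYT cells, are the background for every list count at this threshold, and the import counts were close to them. The 3 past both thresholds were higher, Gfer by 1.75 and Chchd4 by 1.06, which run the disulfide relay of the intermembrane space, and Timm50, a receptor of the TIM23 complex, by 1.01. After preconditioning Gfer was -1.39 lower than in CYT cells, the single import gene past both thresholds, with 8 higher and 10 lower at an adjusted p under 0.05 and a median of -0.07.

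Matrix chaperones and cochaperones other than the 3 described first numbered 8, all tested. With CYT 5 rose and 1 fell at an adjusted p under 0.05 (median 0.38), where 30.6% and 31.7% of all genes did, and none was past the fold minimum. In IL-1βlow + CYT against CYT cells 4 were lower and 1 was higher (median -0.26), where 25.5% and 25.3% of all genes were. Mitochondrial proteases, peptidases and quality control genes numbered 20, all tested, with Phb1 listed under its older symbol as well. Of these 10 rose and 3 fell with CYT (median 0.36), against the same 30.6% and 31.7%, with Mipep, a presequence peptidase, at 1.03 and Oma1, the stress-activated inner membrane protease, at 1.02 past both thresholds. After preconditioning 8 were lower and 3 higher (median -0.26), against 25.5% and 25.3%, and none passed both thresholds.

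The list of stress signalling from mitochondria and the integrated stress response held 15 genes, all tested, of which 11 rose and 2 fell with CYT at an adjusted p under 0.05 (median 0.64), against 30.6% and 31.7% of all genes. Past both thresholds 6 rose, where 10.0% of all genes did. These 6 include Oma1, which is in the protease list too and was already counted there. Besides Ddit3 and Atf4, Ppp1r15a, the phosphatase subunit that ends the response, rose by 3.23 and was -2.88 lower after preconditioning. Dele1, which relays mitochondrial stress from Oma1 to the integrated stress response, rose by 0.64 (SE 0.09, adjusted p = 4.0e-05) and was -0.62 lower. In IL-1βlow + CYT against CYT cells 11 of the 15 were lower and 1 was higher (median -0.62), against 25.5% and 25.3% of all genes.

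ATF4 targets, 16 genes with 15 tested, had the largest medians of the 6 lists. All 15 rose with CYT at an adjusted p under 0.05, 12 of them past both thresholds, with a median of 1.70, where 30.6% and 10.0% of all genes rose. All 15 were lower past both thresholds when preconditioned cells were challenged, set against CYT alone (median -1.51), where 5.92% of all genes were. Like the others, this list was chosen with earlier results known, so its counts are not a test. Trib3, a pseudokinase, rose by 6.08 and was -4.12 lower, Chac1, a glutathione-degrading enzyme, rose by 4.38 and was -3.15 lower, and Cth, of the transsulfuration pathway, rose by 3.18. None of these lists, the mitokine receptors included, had a gene past either threshold in IL-1βlow against untreated cells.

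**Figure D4:**
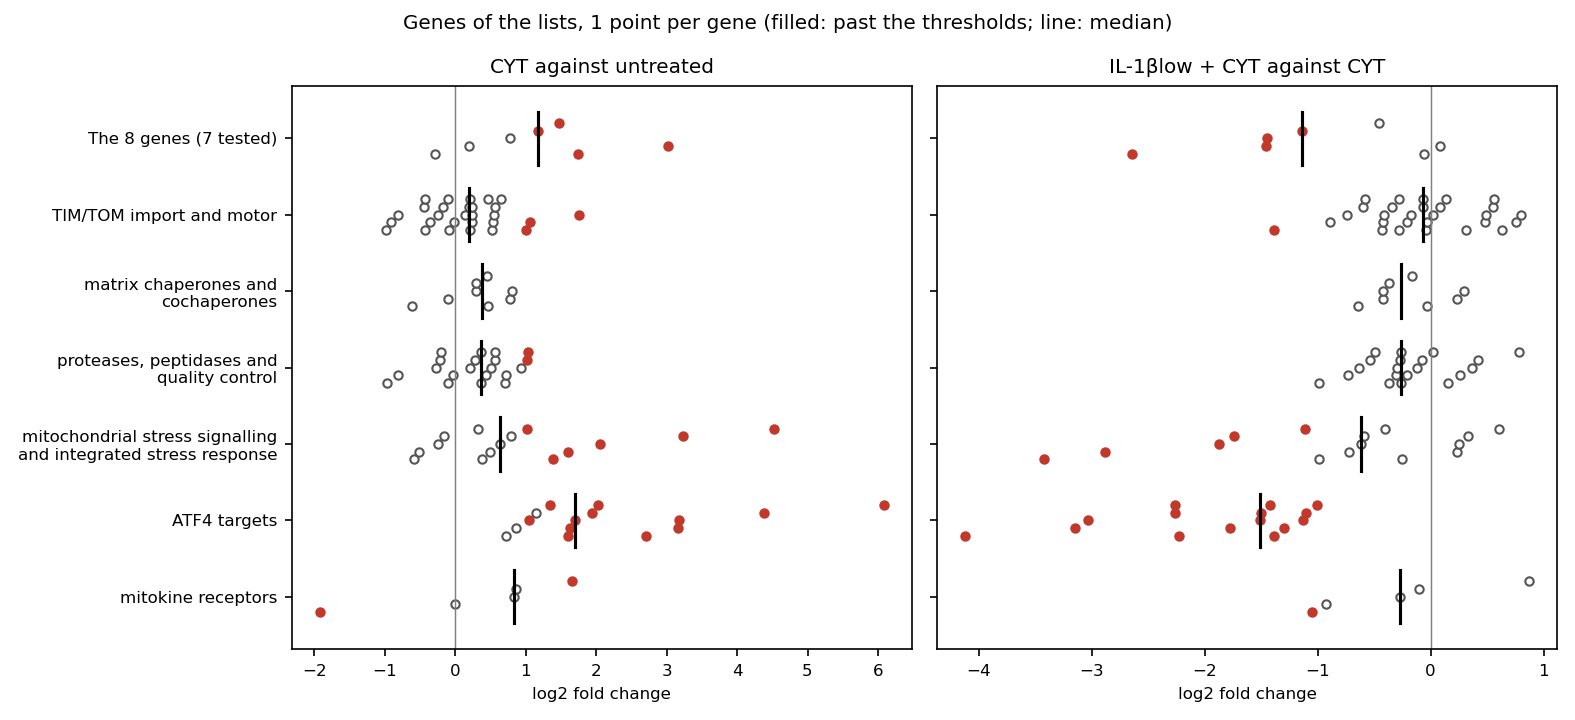
Fitted log2 fold changes (horizontal axes) of the genes in each list, 1 point per gene, filled where past both thresholds, with a vertical line at the median; left, CYT against untreated cells, right, IL-1βlow + CYT against CYT cells, which share the CYT libraries. The medians of the 7 tested genes, 1.17 and -1.14, lie between those of the stress signalling list and of the ATF4 targets in both panels.

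Genes with a pattern like that of single members were sought by the distance between their 3 log2 fold changes against untreated cells (IL-1βlow, CYT and IL-1βlow + CYT), over 12 libraries and 11491 genes. Nearest to Lonp1 was Shmt2, the mitochondrial serine hydroxymethyltransferase, with 0.12, 1.70 and 0.31 at a distance of 0.0601, followed by Zfp496, Gab2 and Pwwp2b. Nearest to Atf5 were Qtrt1 (distance 0.0892), Mtm1, Ddx59 and Fmn1, and nearest to Hspd1 were Derl2 (0.0233), Acvr2a, Zfp35 and Nedd4. Gdf15 had no such close neighbour, with Gadd45b at 0.451, then Rnf128, Usp18 and Slc6a9. Among the members themselves Hspa9 and Atf5 were closest at 0.317, and Hspd1 and Gdf15 farthest apart at 3.44. All 3 differences share the untreated libraries, and the distances are descriptions without a test.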

How the data were processed

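Polyadenylated RNA of 12 INS-1E libraries was measured. After trimming, the authors used Rsubread for alignment to mRatBN7.2, and they deposited featureCounts counts per gene symbol as whole numbers, without normalization, so that steps on the reads are contained in the counts. Tool names and the build come from the study's methods and the submitters' processing notes, and the strand setting was not given in the sources used here. Every column was matched to a labelled sample by its library name, and 0 columns were left unused. The 8 genes, the gene lists and the tests were chosen with earlier results of these data known.

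Calculations ran in R 4.3.3, with DESeq2 1.42.0, limma 3.58.1 and edgeR 4.0.16. The low-count filter asked for more than 1 CPM in 2 or more libraries and passed 14324 genes (of 34034, with 99.9% of the counts), which were scaled by TMM. All 12 libraries entered one quasi-likelihood fit (glmQLFit, glmQLFTest), with 8 residual degrees of freedom and a common biological coefficient of variation of 0.123. Each standard error is the size of the log2 fold change divided by the square root of its F statistic, and p-values were adjusted over all genes tested (Benjamini-Hochberg). The thresholds for calls were an adjusted p below 0.01 and a log2 change, in either direction, of more than 0.6 (IL-1βlow against untreated) or 1 (elsewhere). Under every scaling tried the median log2 fold change of all genes stayed within 0.1 of 0. Scripts were tested on simulated data. Replicate libraries of a group differed by more than sampling noise (chi-square over its degrees of freedom, 6.67 to 25.3), and total counts, from 15812640 to 20246806, bound counting error only, since no molecular identifiers were read and PCR copies were counted too.

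Genes named besides the 8 are direct partners (Clpx, Grpel1, Trap1, Dnaja3), Atf4 and Ddit3, at most the 3 largest rises and falls of each list past the thresholds, the 4 nearest genes by pattern for Gdf15, Atf5, Hspd1 and Lonp1, and overlapping genes. Dele1, Dnlz, Dnajc19, Hscb, Grpel2, Pam16, Timm44, Phb1, Hsf1, Ptprc, Cd68, Adgre1, Gfral and Fgfr2 fall outside that rule and were chosen after their values were seen.

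Replicate numbers come from the labels, which do not say that equal numbers were grown together. Deviations from the group means of same-numbered libraries correlated at 0.116, 0.475 and 0.453 between CYT and IL-1βlow + CYT and at 0.179, 0.469 and 0.52 between IL-1βlow and IL-1βlow + CYT. In pairs with untreated libraries they ran from -0.188 to 0.181, and the replicate 3 pairs were all negative (-0.188, -0.119 and -0.168). An alternative fit took the replicate number as a block over all 12 libraries, so that untreated libraries were treated as paired too. The alternatives were RLE size factors, no TMM factors, no filter, at least 10 counts in every library, the block, DESeq2's Wald test, edgeR's exactTest (the study's test), only the 2 groups compared, an adjusted p under 0.05 alone, and leaving out each library in turn.

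Upstream sequences are from RefSeq on GRCr8, matched by symbol for 7 of the 8 genes. Protein and secretion measurements were not analysed here.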

Additional observations from a re-analysis of the deposited data

Results flagged for a closer look

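The difference between the CYT response after IL-1βlow and the CYT response without it passed the interaction test in 5 genes, which is why they are listed here. On the log2 scale it was -1.07 for Hspa9, -1.62 for Lonp1, -0.71 for Clpp, -1.49 for Atf5 and -1.64 for Gdf15, with both arms made of 3 libraries per group. Clpp did not reach the fold change minimum of 1, and Hspa9 fell just short of it when any 1 of 3 libraries was left out. No cause of these differences was tested.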

How the results depend on the processing

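Of 826 values of the 7 genes under alternatives, 802 kept their direction and side of the thresholds, 4 no longer passed, 0 newly passed and 20 changed sign. For CYT against untreated and for IL-1βlow + CYT against CYT cells, 4 genes passed both thresholds under every alternative that kept those thresholds. In IL-1βlow against untreated cells, 1 gene (Gdf15) instead of 0 was under an adjusted p of 0.05 with no filter on low counts, and 1 with the replicate block. In CYT against untreated cells the replicate block put 7 genes instead of 6 under 0.05, adding Hspd1 as lower (adjusted p = 0.021). The deviations of same-numbered CYT and untreated libraries correlated at only 0.0945, 0.181 and -0.119. The replicate block changed no call by both thresholds. In IL-1βlow + CYT against untreated cells, the 2 genes under an adjusted p of 0.05 became 1 with RLE size factors, 1 with at least 10 counts in every library, and 0 to 3 when 1 library was left out, and 2 genes instead of 0 were called without a fold minimum. In IL-1βlow + CYT against IL-1βlow cells, 0 genes instead of 1 passed when only the 2 groups compared were fitted. The interaction called 3 to 4 genes when 1 library was left out.

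Signs changed only for log2 differences near 0 that passed no test. Against untreated, with 1 library left out, IL-1βlow gave -0.049 to 0.077 for Hspe1 and -0.052 to 0.10 for Atf5, and IL-1βlow + CYT gave -0.14 to 0.13 for Hspa9 and -0.097 to 0.074 for Atf5. Atf5 was also at -0.0057 there with at least 10 counts in every library. Against CYT, IL-1βlow + CYT gave -0.10 to 0.18 for Hspd1. Against IL-1βlow, it gave -0.14 to 0.18 for Hspd1, -0.067 to 0.20 for Hspa9, -0.023 to 0.14 for Clpp and -0.13 to 0.054 for Atf5, which was at 0.0075 with no filter. The cause was not tested. Depth limits Fgf21, which had at most 6 counts in a library, and Gdf15 without challenge.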

Other observations

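Receptors for the mitokines were also measured. Gfral, the GDF15 receptor, and Fgfr2 were below the filter, leaving 5 of 7 receptor genes tested. With CYT, 3 rose and 1 fell at an adjusted p under 0.05 (edgeR), with a median log2 fold change of 0.84, where 30.6% of all genes rose and 31.7% fell. Ret, the signalling partner of Gfral, rose by 1.66 (SE 0.14, adjusted p = 1.3e-07), and Klb, the coreceptor of FGF21, changed by -1.92 (SE 0.25, adjusted p = 1.4e-05). In IL-1βlow + CYT against CYT cells 1 was higher and 2 were lower (median -0.27), against 25.3% and 25.5% of all genes. Klb was higher by 0.87 (SE 0.26, adjusted p = 0.013), Fgfr4, an FGF receptor, was at -1.05 (SE 0.18, adjusted p = 3.0e-04), and Ret was at -0.27, which did not pass the test (adjusted p = 0.10).

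Hsf1, the factor of the cytosolic heat shock response, rose by 0.79 with CYT (SE 0.11, adjusted p = 3.4e-05) and was at -0.59 in IL-1βlow + CYT against CYT cells (SE 0.11, adjusted p = 6.2e-04). The heat shock element core lay upstream of the start sites used for the chaperonin genes. With CYT these genes differed from untreated cells by -0.29 (Hspd1) and 0.20 (Hspe1). The core also lay upstream of Hspa9, at 1.17, and Clpp, at 0.78, and in 7.23% of all windows. Only this core was searched. In the Hspe1 run its GAA and TTC units continue on both sides of the match, and in the Hspa9 and Clpp windows they do not. The 7.23% covers the core alone, so it is no background for the longer stretch. No link between Hsf1 and these genes was tested.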
